A study of Homo sapiens with 2 samples.

Results

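Ubiquitin-specific proteases (USPs) are the largest family of enzymes that take ubiquitin off proteins. The skipped exons listed for their genes in HEK293T cells, with and without amiloride, are described here. Members were the rows of the deposited skipped-exon table whose gene symbol was USP followed by a number and at most 1 letter. USP39 was left out, because that protein works in the spliceosome. This gave 831 skipping events on 486 exons of 43 genes, out of 113456 events on 67154 exons of 11965 genes in the whole table. An exon is counted once for each set of chromosome, strand, start and end, and an event is 1 combination of that exon with an upstream and a downstream exon.

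HEK293T is a cell line derived from human embryonic kidney. Polyadenylated RNA was sequenced from 1 library of control cells, which received no treatment, and from 1 library of cells given medium with 300 µg/mL of amiloride for 6 h. Amiloride is a diuretic that blocks sodium channels and has been used to perturb splicing. The deposited tables came from rMATS, a program that lists alternative splicing events and counts the reads of each form, and they cover both libraries together. The table numbers the libraries and does not name their condition, so inclusion levels and reads per library were not used, and no effect of amiloride on a USP exon is given. What is described is which USP exons were listed, how they were joined when left out, what the skipped form would encode, and which sequences surround them. An exon is called left out where an event lists a form without it. Whether reads of that form were seen, and how many, was not examined.

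Ubiquitin is attached to lysines of a target protein or to another ubiquitin, and USPs cut this link with a catalytic cysteine that a histidine activates. Both residues lie in short conserved stretches of the protease domain, the cysteine box near its start and the histidine box near its end. Outside that domain the family differs widely, and these outer regions direct each enzyme to chromatin, the proteasome, endosomes or mitochondria. An exon whose length is divisible by 3 can be left out without a change of reading frame, whereas any other length shifts the frame of all that follows.

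Both boxes were encoded in part by exons that the table listed as skipped. The cysteine box was searched as asparagine, any residue, glycine, any residue, threonine, cysteine, and then tyrosine or phenylalanine, and was found in 33 of the 43 proteins. The histidine box was searched as glycine, histidine, tyrosine, and was found in 41: behind the cysteine box where one was found, by this pattern or a looser one, and otherwise as the first match, as in USP54. A listed exon held part of the cysteine box in 19 genes, part of the histidine box in 22, part of either in 33 and of both in 8 (USP4, USP12, USP15, USP16, USP33, USP36, USP37 and USP42). These are 57.6% of genes with a cysteine box and 53.7% of those with a histidine box, and 55% of all internal USP exons were listed. The exons numbered 22 for the cysteine box and 25 for the histidine box. A listed junction left out the exon alone for 16 cysteine exons, keeping the frame in 6 and shifting it in 10, and for 17 histidine exons, keeping it in 3 and shifting it in 14. The events of the others left out neighbouring exons as well. Frames and product lengths here compare the skipping junction with the canonical transcript. The forms of an event with and without the exon differ by that exon only, so neighbours passed over are missing from both.

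The exons below are shown because a listed junction leaves out each of them alone, with loss of part or all of the cysteine box and with the rest of the protein in frame. They are printed 5′ to 3′ along the transcript, from GRCh37, with the codons of the box in capitals. For the cysteine box, the capitals begin at the asparagine codon.
USP30 exon 3, chr12:109495731-109495913, plus strand: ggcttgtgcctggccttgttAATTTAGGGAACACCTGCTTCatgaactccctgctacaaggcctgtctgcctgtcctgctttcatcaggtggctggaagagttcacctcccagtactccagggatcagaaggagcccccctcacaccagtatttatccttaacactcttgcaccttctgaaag
USP8 exon 15, chr15:50784898-50785110, plus strand: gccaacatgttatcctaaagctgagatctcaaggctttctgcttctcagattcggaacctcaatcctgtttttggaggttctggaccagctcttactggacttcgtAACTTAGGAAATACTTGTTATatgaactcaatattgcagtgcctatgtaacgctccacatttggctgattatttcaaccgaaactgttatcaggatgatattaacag
USP42 exon 3, chr7:6154954-6155154, plus strand: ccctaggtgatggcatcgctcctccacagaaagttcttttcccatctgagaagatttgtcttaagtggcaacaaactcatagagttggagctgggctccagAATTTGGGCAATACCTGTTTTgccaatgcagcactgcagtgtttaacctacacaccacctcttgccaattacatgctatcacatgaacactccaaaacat
USP12 exon 2, chr13:27690653-27690733, minus strand: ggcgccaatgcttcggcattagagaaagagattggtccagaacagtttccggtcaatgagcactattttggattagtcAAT
USP46 exon 2, chr4:53497231-53497311, minus strand: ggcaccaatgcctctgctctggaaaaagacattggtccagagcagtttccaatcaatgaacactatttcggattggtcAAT
USP30 sits in the outer mitochondrial membrane and acts against parkin. Its exon 3 encodes residues 65 to 126 of 517 and the whole box, and both of its events used a skipping junction that an annotated transcript also has. The junction from exon 2 to exon 4 leaves 456 residues in frame, and that from exon 1 to exon 4 shifts the frame. USP8 acts at endosomes, where it spares receptors from degradation. Its exon 15 holds the whole box and was listed in 1 event, from exon 14 to exon 16, with no annotated junction, which would leave 1047 of 1118 residues. Exon 3 of USP42 encodes residues 81 to 148 of 1316, and its only event had an annotated junction. In USP12 and USP46, which need the partner protein WDR48 for activity, exon 2 ends with the asparagine codon that opens the box, and exon 3 carries the remaining 18 bases, the cysteine codon among them. Exon 2 is 81 bases long in both genes, 67 of which are identical (82.7%), and was listed in 1 event in USP12 and in 2 in USP46. Exon 3 is 214 bases long in both, so leaving it out would shift the frame: USP12 would end after 57 of 370 residues and USP46 after 53 of 366.

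The sixth of these cysteine exons is exon 4 of USP36, a nucleolar enzyme. It has 222 bases, holds the whole box and was listed in 3 events, of which the junction from exon 3 to exon 5 keeps the frame and leaves 1049 of 1123 residues, and the others shift it. Exon 12 of USP37, an enzyme of cell cycle control, also has a length divisible by 3, but its only event joined exon 11 to exon 14 and so left out exon 13 as well. That form removes 256 bases and would end after 347 of 979 residues. In USP21, which removes ubiquitin from histone H2A, the box is again divided between neighbours. Exon 4, of 60 bases, holds 15 bases of it and its own events left it out together with exon 5 or with exons 5 and 6, both with a shift of frame. Exon 5, of 121 bases, holds the last 6 bases, which begin with the cysteine codon, and was also left out alone, with a product of 224 of 565 residues. A join from exon 3 to exon 10, listed for another exon of USP21, removes both in frame and leaves 359 of 565 residues. In USP15 the join from exon 5 to exon 9 removes the box on exon 8 together with exons 6 and 7, in frame, and leaves 883 of 981 residues. Joins listed for other exons can also remove a cysteine exon in frame. Examples are USP3 (exon 3 to exon 8, 399 of 520 residues) and USP4 (exon 3 to exon 10, 707 of 963).

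The histidine box was on an exon that a listed junction left out alone and in frame in USP32, USP42 and USP48. These 3 exons are shown for that reason, again with the codons of the box in capitals.
USP48 exon 9, chr1:22062939-22063118, minus strand: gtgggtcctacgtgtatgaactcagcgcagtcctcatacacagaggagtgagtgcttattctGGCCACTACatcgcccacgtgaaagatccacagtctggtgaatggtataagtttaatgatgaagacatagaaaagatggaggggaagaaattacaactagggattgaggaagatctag
USP42 exon 10, chr7:6185147-6185287, plus strand: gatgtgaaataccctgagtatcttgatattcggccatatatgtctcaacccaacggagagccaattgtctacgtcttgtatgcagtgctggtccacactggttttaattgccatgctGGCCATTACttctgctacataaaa
USP32 exon 33, chr17:58257906-58257998, minus strand: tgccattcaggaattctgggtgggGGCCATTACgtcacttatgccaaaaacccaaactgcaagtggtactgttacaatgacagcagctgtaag
Exon 9 of USP48 encodes residues 331 to 391 of 1035 and was listed in 2 events, from exon 8 to exon 10 in frame and from exon 7 to exon 10 with a shift. The only event of USP42 exon 10 leaves 1269 of 1316 residues. Its counterpart in USP36, exon 11, has the same 141 bases in length, of which 90 (63.8%) are identical, but its only event left out exon 12 as well, in a join from exon 10 to exon 13 that shifts the frame. Exon 33 of USP32 encodes residues 1517 to 1547 of 1604, and its only event has an annotated junction. USP32 is closely related in sequence to USP6, so the source of reads on such exons may be uncertain. USP18 removes the ubiquitin-like protein ISG15, and its exon 9, of 132 bases, encodes residues 298 to 341 of 372. Its only event joined exon 6 to exon 11, which removes 446 bases and would end the product after 233 residues. USP18 has a near-identical copy, USP41, and the same limit applies to it.

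In 5 further genes an event of the histidine exon itself left it out with its neighbours and kept the frame. In the paralogs USP25 and USP28 the same join, from exon 14 to exon 17, was listed, and in both it removes 300 bases in frame, leaving 1025 of 1125 residues in USP25 and 1039 of 1139 in USP28. The others were USP33 (exon 17 to exon 20, 812 of 911 residues), USP37 (exon 22 to exon 25, 917 of 979) and USP44 (exon 3 to exon 6, 607 of 712). In USP37 the histidine exon left out, exon 24, holds only 1 base of the box. The other 8, with the histidine codon, are on exon 25, which this join keeps.

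Of the 24 box exons left out alone with a shift of frame, 14 would gain a stop codon more than 50 bases before the last exon junction. Exon 6 of USP7, the enzyme that stabilises MDM2 and p53, holds the whole cysteine box, was listed in 3 events, and the one without exon 6 alone would leave a product of 207 residues against 1102. Exon 43 of USP34, an enzyme that acts on axin in WNT signalling, would leave 1896 of 3546. Exon 31 of USP9X would leave 1537 of 2554. Exon 5 of USP14, the enzyme bound to the proteasome, had 1 event, which left out exons 4 and 6 as well, by a join from exon 3 to exon 7 that would leave 117 of 494. Exon 5 of USP22, the ubiquitin protease of the SAGA complex, had events from exon 4 to exons 8 and 9, which would leave 199 and 203 of 525. Histidine exons lie close to the end of many of these proteins: without its exon 19, USP5, which takes apart free ubiquitin chains, would have 801 residues against 858, and without its exon 20 USP13 would have 806 against 863. Annotated skipping junctions were found for 3 of the 22 cysteine exons (USP30, USP42 and USP46) and 5 of the 25 histidine exons (USP4 exon 21, USP13 exon 20, USP15 exon 20, USP32 exon 33 and USP44 exon 5). Over all 486 USP exons, such a junction was found for 103 (21.2%).

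**Figure D1:**
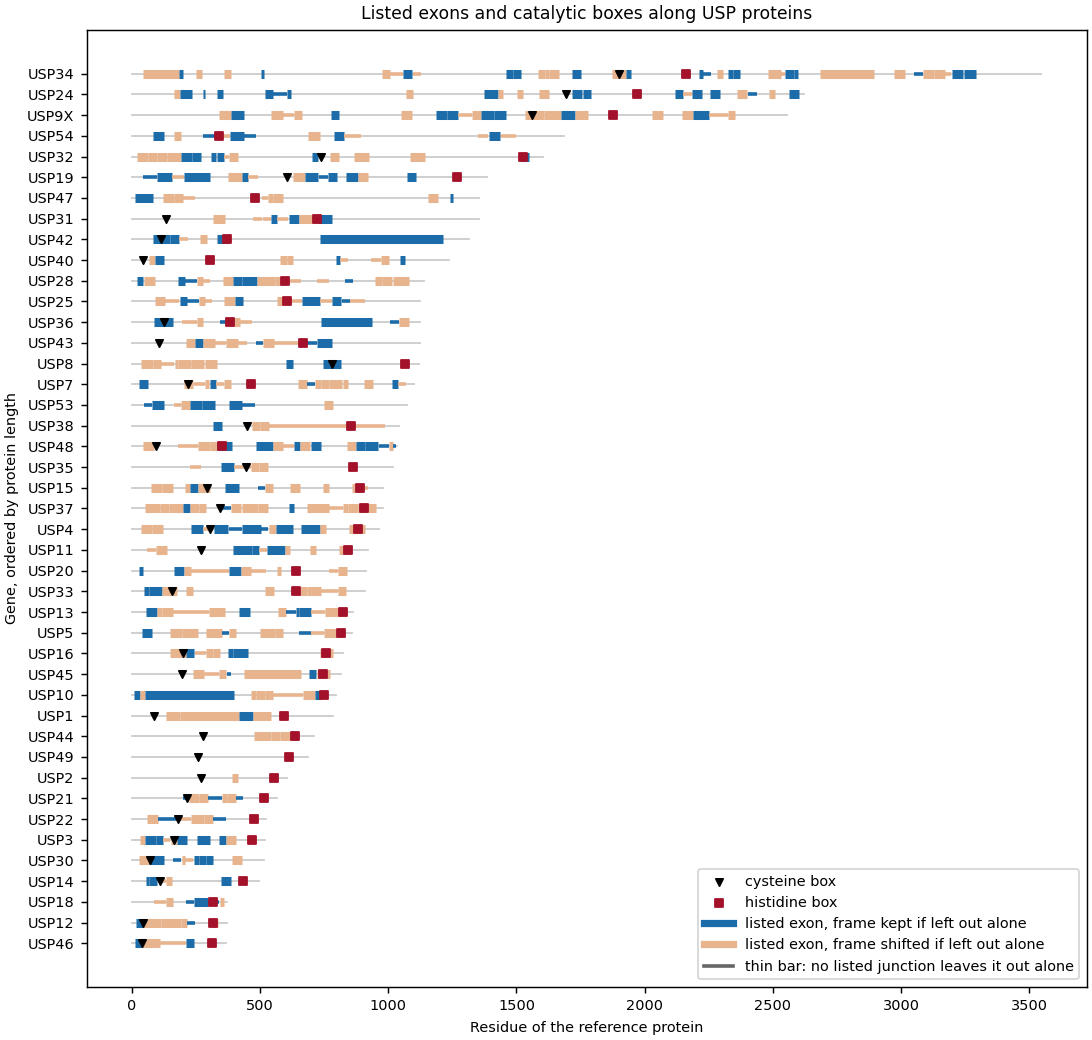
Each line is a USP protein drawn to its length in residues, ordered by length. Bars are the residues encoded by listed exons, in blue where leaving out that exon alone would keep the frame and in light orange where it would shift it. Thin bars are exons that no listed junction leaves out alone. Triangles mark the cysteine box and squares the histidine box, found in 33 and 41 of 43 proteins.

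Across the family, 473 of the 486 exons were internal exons of the canonical transcript in GENCODE release 44. The other 13 exons, in 9 genes, were alternative exons or alternative ends of known ones. A listed junction of its own events left out the exon alone, joining its direct neighbours, for 357 of the 473. The events of the other 116 left out further exons as well or used a junction that starts or ends outside the canonical exons. Of the 357 single losses, 138 would keep the frame, 202 would shift it, 8 would remove the start codon and 6 would remove no coding base. A further 3 would keep the frame but create a stop codon where the neighbours meet, in USP4 exon 19, USP32 exon 28 and USP36 exon 5. Of the 202 that shift the frame, 181 would place a stop codon at such a distance, a position from which transcripts are often degraded. Single losses that keep the frame occurred in 38 genes and would remove 9 to 480 residues, with a median of 38.

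The share of lengths divisible by 3 was 38.7% (188 of 486, 95% Wilson interval 34.5 to 43.1) in USP exons and 38.8% in all listed exons, a difference within the interval. The median length was 114 bases in both sets, with quartiles of 85 and 147 in USP exons and 83 and 154 in all. Wholly coding exons made up 94.9% of USP exons (461, interval 92.5 to 96.5) and 89.5% of all (interval 89.3 to 89.8), and the intervals do not meet. Exons are not replicates, so no test was run across them, and these intervals cover counting error only. A list of other deubiquitinases, mainly OTU, UCH, Josephin, JAMM and MINDY enzymes and CYLD, had 203 listed exons in 32 genes, of which 32.0% had a length divisible by 3 (interval 26.0 to 38.7).

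The longest members show how much 1 exon can carry. Exon 15 of USP42 has 1440 bases and would take out 480 of 1316 residues in frame, all of them after both boxes. Exon 4 of USP10 has 1041 bases and, left out alone, would leave 451 of 798 residues. Exon 9 of USP38 has 1363 bases, and its only event left out exons 7 and 8 as well, which shifts the frame and would leave 471 of 1042 residues. Exon 2 of USP2 has 815 bases and holds the start codon, and exon 6 of USP1, an enzyme of the Fanconi anaemia pathway, has 692 bases and would leave a product of 186 residues against 785. At the other end, 2 members had no more than 27 bases. They are printed because they are the shortest stretches that the splicing machinery would have to define in this family.
USP13 exon 16, chr3:179474840-179474866, plus strand: atcgcctgatgaaccaattgatagacc
USP48 exon 26, chr1:22007301-22007327, minus strand: tttgtatgccagaagaagggtttaaag
The USP13 exon was listed as left out alone, with a loss of 9 residues in frame, and also with exon 17, in frame, with 806 of 863 residues left. The skipping junction of the only event of the USP48 exon left out exon 25 as well. Against the canonical transcript it removes 76 bases, shifts the frame and leaves 1012 of 1035 residues. The form with the USP48 exon lacks exon 25 too. The USP13 and USP48 exons differ in their splice sites. The splice site score is a sum of log2 ratios of base frequencies, in which higher values mean bases more common at annotated sites. It was 2.61 at the 5′ and 11.82 at the 3′ splice site of the USP13 exon, and 12.55 and 18.17 at those of the USP48 exon. Of these 3 events, the one that leaves out the USP13 exon by itself had an annotated skipping junction.

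Listing was widespread among the genes. Of 860 internal exons in the canonical transcripts of the 43 genes, 473 were listed, or 55% (interval 51.7 to 58.3), against 48.8% (58644 of 120090, interval 48.6 to 49.1) over the genes of the whole table and 59.8% (149 of 249, interval 53.6 to 65.7) in the other deubiquitinases. These comparisons rest on the 10707 genes of the table and the 27 other deubiquitinases whose symbols matched a canonical transcript. In 29 USP genes more internal exons were listed than not, and in none were all of them. The count per gene ran from 2 to 34 with a median of 11, against a median of 4 over all genes. An exon with no row was not shown to be always included, since listing rests on how strongly a gene is expressed and how deeply it was read, and neither was used here.

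USP34, USP24 and USP9X had the most internal exons and the most listed exons, but not the highest shares. USP34 had 34 of 78 internal exons listed (43.6%), USP9X 23 of 43 (53.5%) and USP24 22 of 66 (33.3%). USP37 had 19 of 24 (79.2%), USP48 18 of 25 (72%), USP28 17 of 24 (70.8%) and USP7 16 of 29 with 1 more outside its canonical transcript. USP32 had 16 of 32, and USP4, USP13 and USP25 had 15 each, of 20, 19 and 24. USP19 had 14 of 25 and 1 more outside. The highest shares were in shorter genes: USP12 with 6 of 7 (85.7%), USP43 with 11 of 13 (84.6%), USP10 with 10 of 12 (83.3%) and USP30 with 9 of 11 (81.8%). The lowest share was 18.2% in USP2, an enzyme that acts on cyclin D1, with 2 of 11, and USP40 followed with 9 of 30.

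Listed exons often lay side by side. With 55% of internal exons listed, runs of neighbours would arise from that share alone, and runs in other genes were not computed. The longest run of neighbouring listed exons had a median of 5 per gene and reached 8 in USP4 (exons 7 to 14) and USP8 (exons 2 to 9). It was 5 or more in 26 genes. In USP2 no listed exon had a listed neighbour.

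**Figure D2:**
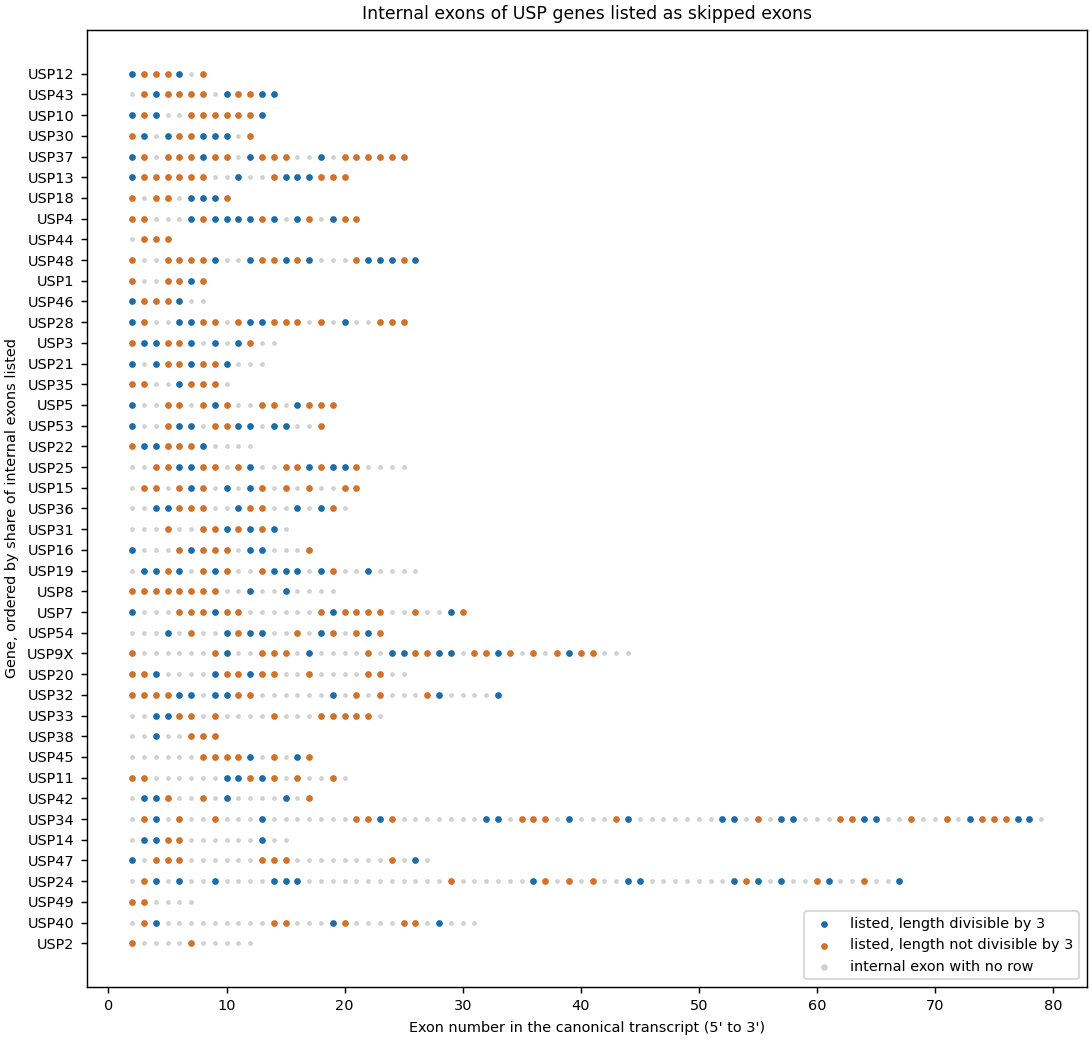
Each row is a USP gene, ordered by its share of internal exons listed, from USP12 (85.7%) to USP2 (18.2%), and each dot is an internal exon by its number in the canonical transcript. Blue dots were listed with a length divisible by 3, orange dots were listed with another length, and grey dots had no row.

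By role, the share of internal exons listed ran from 52.6% to 77.8% between lists. Enzymes of chromatin and transcription had 72 of 126 (57.1%) over 9 genes, from 33.3% in USP49 to 75% in USP44, a gene of the spindle checkpoint. Of this list USP3 had 9 of 13 internal exons listed, USP7 16 of 29, USP16 9 of 16, USP21 8 of 12, USP22 7 of 11, USP36 11 of 19 and USP42 7 of 16. Enzymes of DNA repair and checkpoints had 66 of 117 (56.4%), from 34.6% in USP47 (9 of 26) to 72% in USP48. Here USP1 had 5 of 7, USP11 9 of 19 and USP45 8 of 16. The 3 enzymes of the proteasome and of free ubiquitin chains had 32 of 51 (62.7%), with 12 of 18 in USP5, 15 of 19 in USP13 and 5 of 14 in USP14.

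The 3 partners of WDR48 (USP1, USP12 and USP46) had 16 of 21 (76.2%). The list of endosome, receptor and signalling enzymes had 160 of 304 (52.6%) over 11 genes, from USP2 to USP10. It includes USP8 with 10 of 18, USP15 with 12 of 20, USP20 with 12 of 24 and USP33 with 11 of 22. USP19, which has a form anchored in the endoplasmic reticulum, and USP30 together had 23 of 36 (63.9%), and USP18 had 7 of 9 (77.8%). USP53 with 11 of 17 and USP54 with 12 of 22 formed a further list (59.0%). Neither protein matched the cysteine pattern or the looser one, which does not show that they lack protease activity. In USP54 a match to the histidine pattern was found at residue 340. USP31 had 8 of 14, USP35 6 of 9 and USP38 4 of 8. The protein-coding genes USP6, USP26, USP27X, USP29, USP50 and USP51 had no row in the table used here. USP27X has no internal exon to skip, and USP6 has 36.

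Most events used a junction that GENCODE does not hold. A skipping junction is the join between the exons on either side of a skipped one, and the 831 events had 660 distinct ones. Of these, 560 (84.8%, interval 81.9 to 87.4) were in no annotated transcript, against 80.9% (71892 of 88907, interval 80.6 to 81.1) over the whole table and 82.9% (interval 77.8 to 87.1) in the other deubiquitinases. The annotation that the authors gave rMATS is not named in the sources used here and may hold some of them. At least 1 annotated skip was found for 103 exons (21.2%), of which 38 would keep the frame if left out alone, 51 would shift it and 8 lie outside the canonical transcript. The share of lengths divisible by 3 was 42.7% in these 103 exons (interval 33.6 to 52.4) and 37.6% in the 383 others (interval 32.9 to 42.5), and the intervals overlap.

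The genes differed in this respect. In USP13 only 4 of 19 junctions were absent from the annotation, and in USP14 2 of 6. In USP34 36 of 38 were absent, in USP37 28 of 30, in USP48 26 of 28 and in USP10 28 of 35. No annotated skipping junction was found in 8 genes: USP1, USP5, USP11, USP12, USP20, USP24, USP31 and USP49. Of these, USP24 had the most junctions, 23.

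**Figure D3:**
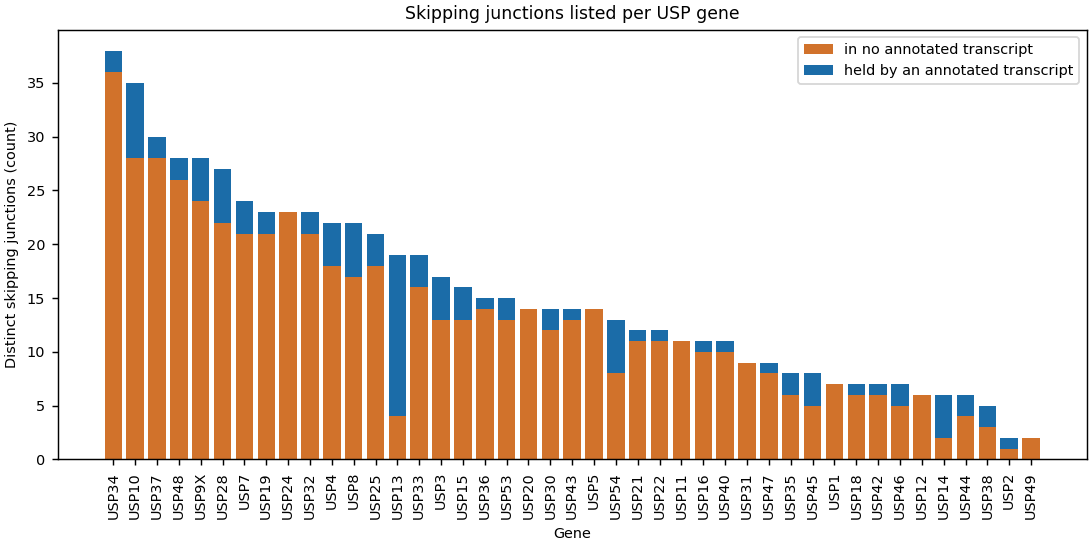
Bars give the number of distinct skipping junctions per USP gene, split into those held by an annotated transcript (blue) and those in none (orange). USP34 leads with 38 and USP10 follows with 35, and USP13 has 15 of 19 annotated.

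Many junctions passed over more than 1 exon. Of the 644 that joined exons of a canonical transcript, 358 (55.6%) passed over 1 exon, 139 (21.6%) over 2 and 147 (22.8%, interval 19.8 to 26.2) over 3 or more, against 57.7%, 21.1% and 21.1% over the whole table. The start codon or no coding base was removed by 22 of them, and 3 kept the frame but created a stop codon where the exons meet. Of the remaining 619, the frame was kept in 227 (36.7%, interval 33.0 to 40.5). It was kept in 40.8% of junctions over 1 exon (interval 35.7 to 46.1), 36.0% over 2 (interval 28.4 to 44.4) and 27.5% over 3 or more (interval 20.8 to 35.3). Among annotated junctions the share was 48.8% (42 of 86, interval 38.6 to 59.2), and among the others 34.7% (185 of 533, interval 30.8 to 38.8). Junctions of 1 gene share exons and reads, so these intervals understate the uncertainty.

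Junctions over 10 or more exons numbered 9, in 3 genes, and none was annotated. In USP10 the first exon was joined to exons 12, 13 and 14, the last of which leaves out all 12 internal exons. In USP19 exon 2 was joined to exon 20, over 17 exons, and exon 3 to exons 15, 16, 17 and 20. In USP25 exon 3 was joined to exon 21, also over 17 exons. The join from exon 1 to exon 12 of USP10 would keep the frame and leave 139 of 798 residues, and the other 8 would shift it. Reads behind these junctions were not used, so their abundance is unknown.

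USP10 held the most complex set of events. This enzyme acts on p53 in the cytoplasm and binds the stress granule protein G3BP1. Its 11 listed exons had 65 events, or 5.91 per exon. The next highest values were 3.33 in USP44 and 3.20 in USP8, and the long genes USP9X and USP34 had 1.43 and 1.24. Exon 4 (chr16:84778239-84779279, plus strand) was listed in 15 events, the most of any USP exon, with 3 upstream and 7 downstream partners, and 3 of these events had an annotated junction. Against the canonical transcript, the skipping junction keeps the frame in 4 of the 15 and shifts it in 11, which also leave out other exons. The forms with exon 4 lack those other exons too. The most for any exon of the whole table was 18. Exon 2 of USP10, of 69 bases, was listed in 9 events with 1 upstream and 9 downstream partners and no annotated skip. Exons 7 and 8 had 7 events each, exon 3 had 6, and exons 9 and 11 had 5 each.

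Outside USP10, the exons with the most events were USP37 exon 23 with 7, USP28 exon 14 with 6 and USP32 exon 5 with 6. Left out alone, each of the 3 shifts the frame. With neighbours included, the skipping junctions were compared with the canonical transcript. The frame was kept in 2 of the 7 events of USP37 exon 23, 2 of the 6 of USP32 exon 5 and 0 of the 6 of USP28 exon 14. USP28 works in the DNA damage response and stabilises MYC. In all, 286 USP exons had 1 event, 127 had 2, 65 had 3 to 5 and 8 had more. More than 1 event was found for 41.2% of USP exons (200, interval 36.9 to 45.6) and 40.0% of all listed exons, a difference within the interval.

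Splice site strength was scored from the genome. The 5′ splice site score sums, over 3 exon and 6 intron bases, the log2 ratio of each base's frequency at annotated sites to equal base frequencies. The 3′ score does the same over 20 intron and 3 exon bases. The median 5′ score was 7.97 in USP exons (95% interval of the median 7.72 to 8.15) and 8.07 in all listed exons, and the median 3′ score was 9.46 (interval 9.11 to 9.97) and 9.21. Both medians of all listed exons lie within the USP interval. Both scores lay under the median of all listed exons in 105 USP exons. How often this holds over all listed exons was not computed, so the count has no comparison. The shortest distance to a flanking exon in the listed events had a median of 2350 bases before a USP exon and 2058 after it. Over all listed exons the medians were 2200 and 2003. This distance is longer than the intron where the flanking exon is not the direct neighbour. Exons with an annotated skip and exons without had median 5′ scores of 7.96 and 7.97 and median 3′ scores of 9.50 and 9.43.

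**Figure D4:**
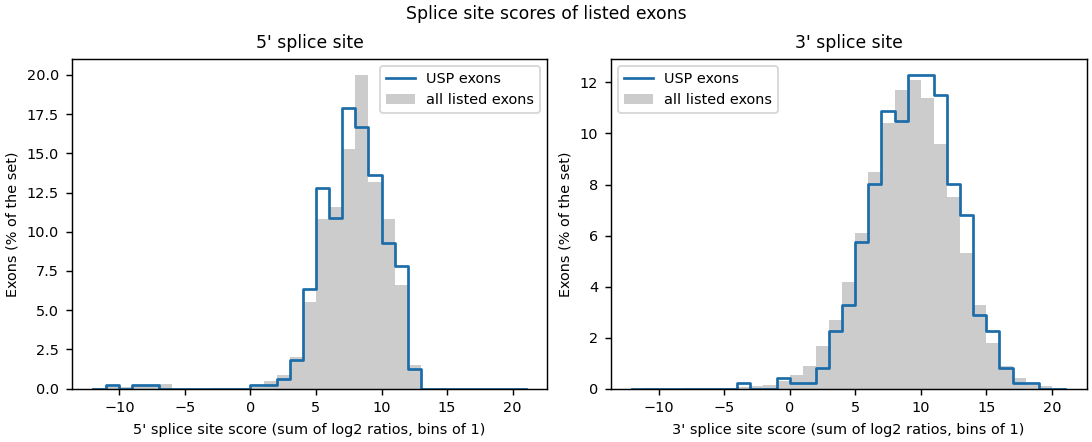
Histograms of the 5′ (left) and 3′ (right) splice site score, in bins of 1, as percent of exons. The blue line is the 486 USP exons and grey bars are all 67154 listed exons. The distributions lie over each other, and 3 USP exons form a separate group at low 5′ scores.

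The members with the lowest scores are shown with their sites. In the 5′ sites, the first 3 bases belong to the exon and the capitals are the first bases of the intron. The first 3 begin with GC instead of GT, which the score penalises heavily because only GT sites trained it. GC introns were found after 3 of 486 USP exons (0.617%) and 637 of all 67154 (0.949%).
USP24 exon 14, chr1:55620044-55620139, minus strand: aagGCagga
USP54 exon 13, chr10:75290462-75290593, minus strand: aagGCaagc
USP7 exon 26, chr16:8990856-8990956, minus strand: tagGCaagt
USP43 exon 11, chr17:9604436-9604562, plus strand: cagGTcccg
USP47 exon 15, chr11:11954551-11954663, plus strand: aagGTtgaa
Their scores were -10.38, -8.28, -7.99, 0.72 and 1.97, in that order. The 3′ scores of the 3 exons before a GC intron were 11.23, 13.96 and 11.61, all above the median of all listed exons. Each of the 5 exons was listed in 1 event, and none had an annotated skip. The event of the USP54 exon left out exon 12 as well, in frame, and the others were left out alone, in frame in USP24 and with a shift of frame in USP7, USP43 and USP47.

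At the 3′ splice site, the capitals are the last bases of the intron, and the 18 bases before them are usually rich in pyrimidines. The 5 lowest sites, whose tracts are interrupted by purines, were these.
USP19 exon 19, chr3:49149717-49149835, minus strand: agccagacgacccaccctAGcgc
USP21 exon 2, chr1:161130156-161130296, plus strand: tgtaccaaacacgatgccAGgta
USP43 exon 13, chr17:9613273-9613431, plus strand: tggggatgggacctttgcAGcct
USP19 exon 8, chr3:49153884-49154040, minus strand: gagccatggtctcaatatAGagc
USP3 exon 12, chr15:63880504-63880622, plus strand: gccaaaatcaatttgtttAGatt
Their scores were -3.05, -0.37, -0.08, 0.96 and 1.51. Exon 2 of USP21 has no coding base and has an annotated skip, and the other 4 exons had none. USP3 is an enzyme that removes ubiquitin from histones, and its exon 12 combines the low 3′ score with a 5′ score of 11.78. In USP43, exons 11 and 13 are thus at the low end for different sites.

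Paralogs were set side by side to see whether counterpart exons were listed together. Proteins were aligned, and 2 exons were taken as counterparts where both ends fell on the same aligned codon and phase. This gave 160 exon pairs, of which 61 were listed in both genes, 76 in 1 and 23 in neither. USP12 and USP46, which are 88.5% identical, had 7 counterpart exons, of which 5 were listed in both. USP5 and USP13 (62.5% identical) had 15, with 8 listed in both, and USP4 and USP11 (51.9%) had 15, also with 8 in both. For USP4 and USP15 (61.1%) the numbers were 16 and 7, and for USP25 and USP28 (51.4%) 17 and 7.

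USP20 and USP33, which bind the VHL protein and are 61.9% identical, had 21 counterpart exons. Of these, 3 were listed in both, 7 in USP20 alone and 8 in USP33 alone. USP2 and USP21 had 10 counterpart exons, with 1 listed in both and 6 in USP21 alone. USP31 and USP43 (44.4%) had 8, with 5 in both, USP16 and USP45 (41.6%) 8, with 4 in both, and USP36 and USP42 (40.2%) and USP53 and USP54 (41.0%) 8 each, with 3 in both. USP35 and USP38 (50.2%) had 8, with 2 in both. USP44 and USP49 (62.1%) had 3, all listed in USP44 alone. Of all internal USP exons 55% were listed, so pairs listed in both would also occur without any link between paralogs. The number to be expected was not computed, and no test was made of these counts.

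Of the 61 pairs listed in both genes, 52 had the same length, and their base identity ranged from 48.2% to 84.4% with a median of 63.9%. The highest value was that of exon 5 of USP12 and USP46, of 77 bases, and the lowest that of exon 8 of USP31 and USP43, of 112 bases. Splice site scores of such pairs could be far apart. For exon 6 of USP5 and USP13, of 185 bases, the 5′ scores were 3.21 and 11.88. For exon 3 of USP4, USP11 and USP15, of 131 bases, the 3′ scores were 13.31, 6.41 and 16.51, and the exon was listed in 3, 1 and 1 events.

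Other kinds of event were fewer than skipping events, in the family and over all genes. Over all genes there were 39869 events of mutually exclusive exons, 2868 of alternative 3′ sites, 2620 of alternative 5′ sites and 677 retained introns, beside 113456 skipping events. In the family, mutually exclusive exons had 299 events in 41 genes. Alternative 3′ splice sites had 5 events in 4 genes, and each moved the exon start within coding sequence by a multiple of 3: 3 bases in USP16, 6 in USP19, 24 in USP33 and 36 in USP46. The USP19 events share the same stretch. How often such events keep the frame over all genes was not computed. The USP16 and USP46 sites are at the start of exons that hold part of the cysteine box, and the 36 bases of USP46 include the 18 box bases on its exon 3. Alternative 5′ splice sites had 10 events in 8 genes, with 15 to 140 bases. Those of USP5 (69 bases), USP19 (30) and USP43 (15) are wholly coding and a multiple of 3. Those of USP1 (95), USP8 (140), USP20 (98), USP46 (59) and USP9X (48) lie in no exon of the canonical transcript. The only retained intron, of 177 bases, was in USP20 (chr9:132642569-132642745).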

How the data were processed

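The authors sequenced polyadenylated RNA of both conditions, and per the labels' processing notes used STAR 2.5.1 with hg19 (GRCh37). The rMATS version and annotation are not given in the sources used here. The deposited tables, 5 in all, hold genome coordinates, effective lengths of each form, 30 columns with reads or inclusion levels of libraries that are only numbered, and the authors' comparison (p-value, FDR and inclusion level difference). The numbered columns match no label and the comparison was barred, so neither was used. Depth is therefore unknown, and the planned comparison of inclusion was not made. The growth notes mention amiloride for both libraries, and the treatment label set the groups.

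Coordinates are 1-based. Exons were matched to GENCODE release 44 on GRCh37 and numbered along the canonical transcript, and each listed junction between canonical exons was translated from the genome. Position weights came from 300873 annotated 5′ sites with GT and 300290 annotated 3′ sites with AG, with a pseudocount of 0.5. In all 831 events the skipping form had an effective length of 125, and the form with the exon exceeded it by the exon's length. Proteins were aligned globally (BLOSUM62, gap penalties 11 and 1). Shares carry 95% Wilson intervals and medians exact binomial intervals. Scripts were tested on simulated data. Python 3.11.15, numpy 2.4.6, scipy 1.17.1, pysam 0.24.0, biopython 1.88 and matplotlib 3.10.9 were used.

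Named were the 10 genes with the most exons, the 10 exons with the most events (2 of the 7 with 5 events, by symbol order), exons of at most 27 bases, the 5 longest and the 5 lowest for each score. Exons with part of a box were chosen as a set, and only some of them are described in the text. Genes were chosen by their count of exons, and the figures show all of them. Junctions over 10 or more exons, single losses, the frame along junctions, runs of neighbouring exons and base identity of paralogous exons were examined after the values were seen. Members and lists were chosen with earlier results of these data known.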

Additional observations from a re-analysis of the deposited data

How the results depend on the processing

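The results that moved with a choice of processing were these 3. The share of skipping junctions absent from the annotation was 84.8% with all GENCODE transcripts and 89.8% (interval 87.3 to 91.9) with protein-coding transcripts only, which by construction hold fewer junctions. The share of exons with more than 1 event was 41.2% with every event and 12.6% (interval 7.53 to 20.4) when only events with an annotated skipping junction were counted, which leaves 103 exons. The number of genes with a listed exon in a catalytic box was 33 for either box and 19 for the cysteine box only. A looser cysteine pattern, chosen after seeing the data, gave 34. The number of exons was 481 with overlapping exons merged and 483 with only exons between AG and GT, and the share of lengths divisible by 3 stayed between 38.5% and 39.3%. The median 5′ score stayed between 7.97 and 7.98 and the median 3′ score between 9.43 and 9.46. No paired analysis was possible because a condition is 1 library only, without replicate numbers in the tables. The inclusion of USP exons in each condition was not computed, since the columns do not name the condition. Depth could not be assessed, and exons of weakly expressed genes may lack a row for that reason alone.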
